A study of Mus musculus with 11 samples.

Results

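The 9 genes described here encode the enzymes that build and break down glycogen and 1 protein that controls both steps: Gys1, Gys2, Gyg, Ugp2, Gbe1, Pygl, Pygb, Pygm and Ppp1r3c. They were picked by symbol from the 29955 gene symbols measured, and all 9 were found. In these cells Gys1, Gyg, Gbe1 and Ppp1r3c rose during fat cell differentiation and were above day 0 in samples with and without rosiglitazone (ROS). Gys2, the synthase gene of liver, was listed at 0 on day 0 and was highest in WT A and in the untransduced day 8 sample with ROS. Its value in WT A was 22.6 times that in WT B, a sample of the same group. Gys2 was in a list that the study selected on these same samples, for higher RNA with ROS and with S265D and for lower RNA with S265A and with S265D-H1120Y, mutants that are explained below. Its values in those contrasts are therefore a description, and Gys2 was tested nowhere.

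Glycogen is the branched glucose polymer in which cells store sugar. UDP-glucose, made by UDP-glucose pyrophosphorylase (Ugp2), is the building block, glycogenin (Gyg) starts the chain on itself, glycogen synthase (Gys1 in most tissues, Gys2 in liver) lengthens it, and the branching enzyme (Gbe1) adds the branch points. Glycogen phosphorylase releases glucose 1-phosphate from the chain ends and has a liver (Pygl), a brain (Pygb) and a muscle (Pygm) isozyme. Ppp1r3c, also called protein targeting to glycogen, brings protein phosphatase 1 to the particle, where dephosphorylation activates the synthase and inactivates the phosphorylase. Fat cells keep a small glycogen store, and glycogen turnover is known to accompany the appearance of thermogenic (beige) fat cells.

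The 11 RNA-seq samples came from im-scWAT, a mouse preadipocyte line made from inguinal subcutaneous white fat with SV40 large T antigen. In the time course, untransduced cells were sampled at days 0, 4 and 8 of differentiation with 0.5 μM ROS, a PPARγ ligand, or without it (ROS-). Each of the 4 later conditions had 1 sample, and the 2 samples of day 0 carry different ROS labels although ROS was only added with the induction medium, so they were taken as 1 group. All cells induced to differentiate received indomethacin, dexamethasone, 3-isobutyl-1-methylxanthine, insulin and T3, followed by insulin and T3, and the sources differ on whether ROS was still present from day 7 to day 8. The other 5 samples, all at day 8 with ROS, came from cells with an shRNA against mouse Jmjd1a (the H3K9 demethylase JMJD1A, Kdm3a in the files) and a retrovirus for human JMJD1A: wild type (WT A and WT B), S265A, which lacks a serine that can be phosphorylated, S265D, which mimics that serine in its phosphorylated form, and S265D-H1120Y, which adds a change in the catalytic domain. The human protein is driven from a viral LTR, the cells are 1 immortalized line, and nothing states that samples of a group came from separate cultures, so the tests measure only the spread between these samples, which may be technical.

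Levels are FPKM, the mapped bases of a transcript per kilobase of its exons and per megabase mapped. They are scaled for transcript length and for the total of a sample, but not for a shift shared by many genes between samples. The total was 3.10 to 5.29 Gb of mapped bases per sample (median 4.64). Kdm3a, the knocked-down gene, was at 13.0 to 28.5 FPKM in the 5 transduced samples and at 15.1 to 23.2 in the 6 untransduced ones, and whether reads of the human retrovirus were counted in it was not tested. Adipocyte markers (10 genes, summed FPKM) were at 270.1 and 271.8 on day 0 and at 9926 to 36210 later. Fabp4 made up most of this sum in every sample (247.9 and 248.7 FPKM on day 0, 7631 to 31400 later). Of markers of tissues that use Gys2, Pygl or Pygm, Myod1, Myog, Ckm and Myh4 of muscle and Tat of liver were at 0 in all 11 samples, and Alb did not exceed 0.71 FPKM. The hepatocyte list (9 genes) summed to 0.06 to 24.0 FPKM, and Cyp2e1 made up most of it in day 8 ROS+ (18.2 FPKM), day 8 ROS- (20.4) and WT A (19.9), with Apoa1 at 1.40 to 3.24 in the later samples. The muscle list (11 genes) summed to 1.26 to 20.3, of which Acta1 made up 19.3 in WT B, the highest sample, the macrophage list (5 genes found) to 0.60 to 21.9, mainly Cd68, with Ptprc and Emr1 at 0, and the endothelial list (5 genes) to 0.41 to 4.00.

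The synthase and phosphorylase genes lie on different chromosomes, and their positions are given on the mouse build mm9, which the files use. Gys1 (transcript uc009gve.1) is at chr7:52690209-52711987 and overlaps Ruvbl2 on the other strand. Gys2 (uc009epi.2) is at chr6:142371133-142421629 on the minus strand with 17 exons and overlaps no other annotated gene. Gyg (uc008oso.1) is at chr3:20021970-20054995, Ugp2 (uc007ids.2) at chr11:21221145-21270882, Gbe1 (uc007zqu.1) at chr16:70314332-70569961, Pygl (uc007ntm.2) at chr12:71291802-71328670, Pygb (uc008mul.1) at chr2:150612532-150657484, Pygm (uc008gio.1) at chr19:6384429-6398459 and Ppp1r3c (uc008hhs.1) at chr19:36806221-36811094. The FPKM of each strand was deposited separately, and antisense bases made up at most 1.03% of the bases at any of the 9 genes, the highest share being at Gys1.

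Upstream sequence is shown for 4 of the members on which the results turn. Ppp1r3c and Pygl were, with Gys2, the members furthest apart between S265D-H1120Y and S265D, and Gys1 and Gbe1 were the closest pair over the 11 samples. RefSeq promoters of the build GRCm38.p6 were given for 8 of the 9 members (not Gys2), and the 250 bases before each start were matched to mm9. Each stretch below is the longest part of those bases outside annotated exons, 5′ to 3′ on the strand of the gene. Capitals mark the motifs searched on both strands: an E-box (CACGTG), a nuclear receptor half-site (AGGTCA) and its direct repeat spaced by 1 base, a cAMP response element (TGACGTCA) and its half-site (TGACG). A C/EBP site (TTGCGCAA), a GC box (GGGCGG), a box read as CCAAT and the letters TATAAA were searched as well.
Ppp1r3c: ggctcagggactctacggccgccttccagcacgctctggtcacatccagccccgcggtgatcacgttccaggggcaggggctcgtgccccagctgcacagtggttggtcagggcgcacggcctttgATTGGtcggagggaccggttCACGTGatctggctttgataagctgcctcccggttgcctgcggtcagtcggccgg
Pygl: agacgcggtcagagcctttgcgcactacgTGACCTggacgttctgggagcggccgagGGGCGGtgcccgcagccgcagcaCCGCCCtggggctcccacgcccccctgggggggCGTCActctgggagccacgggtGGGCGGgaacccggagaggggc
Gys1: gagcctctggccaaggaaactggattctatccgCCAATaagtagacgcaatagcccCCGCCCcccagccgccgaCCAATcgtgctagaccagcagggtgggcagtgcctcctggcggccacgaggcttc
Gbe1: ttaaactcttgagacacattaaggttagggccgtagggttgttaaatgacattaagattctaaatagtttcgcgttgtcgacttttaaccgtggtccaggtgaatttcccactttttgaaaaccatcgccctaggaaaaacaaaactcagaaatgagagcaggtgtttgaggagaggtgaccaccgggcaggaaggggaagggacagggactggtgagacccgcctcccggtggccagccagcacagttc
The Ppp1r3c stretch is chr19:36811144-36811344 (minus strand), that of Pygl chr12:71328671-71328827 (minus), that of Gys1 chr7:52690080-52690208 (plus) and that of Gbe1 chr16:70313944-70314193 (plus). In Ppp1r3c the E-box, a sequence that many basic helix-loop-helix factors bind, lay 104 to 99 bases before the start and a CCAAT box 124 to 120 bases before it. In Pygl a nuclear receptor half-site lay 128 to 123 bases before the start and a TGACG half-site 44 to 40 bases before it, beside 3 GC boxes. In the whole 250 bases of Gys1, 4 CCAAT boxes and 2 GC boxes were found, and Gbe1, whose RNA was most like that of Gys1, had none of these letters. Of the promoters of 27025 genes, 6.05% held CACGTG, 13.8% AGGTCA, 17.9% TGACG, 32.9% GGGCGG and 34.5% CCAAT in the same window. TGACG also forms the first letters of TGACGTCA (1.62% of promoters), the repeat of the nuclear receptor half-site was in 0.037%, and a match is only a match of letters.

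The first comparison asked which of the genes changed when preadipocytes became fat cells, with days 4 and 8 (9 samples) set against day 0 (2 samples). Gys1, the synthase of most tissues, was at 20.8 and 22.8 FPKM on day 0 and at 39.1 (day 4) and 46.6 (day 8) without ROS, 47.5 and 49.8 with ROS, 85.3 in WT A, 39.4 in WT B, 71.1 in S265A, 70.8 in S265D and 77.8 in S265D-H1120Y. All 9 later samples lay above both samples of day 0. The share of all genes that do so was not computed, here or for the genes below. The log2 fold change was 1.37 ± 0.31 (SE), with an adjusted p of 0.0054 in limma. Fold changes here are on the scale of log2(FPKM + 0.1), on which a change of a low gene comes out too small.

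Gyg, which primes the chain, was at 17.4 and 20.1 FPKM on day 0, at 36.1 and 43.4 at days 4 and 8 without ROS, at 45.3 and 69.5 with ROS, and at 65.8 in WT A, 130.5 in WT B, 114.5 in S265A, 71.0 in S265D and 121.7 in S265D-H1120Y. The later samples again did not overlap day 0, and here WT B was the highest sample. The log2 fold change was 1.90 ± 0.46 (SE), with an adjusted p of 0.0073 in limma.

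Gbe1, the branching enzyme, was at 8.41 and 7.16 FPKM on day 0, at 26.1 and 26.9 at days 4 and 8 without ROS, at 24.2 and 33.4 with ROS, and at 131.7 in WT A, 36.2 in WT B, 98.9 in S265A, 84.1 in S265D and 103.9 in S265D-H1120Y. All later samples were above day 0, and WT B stood with the time course while the other transduced samples were higher. The log2 fold change was 2.70 ± 0.65 (SE), with an adjusted p of 0.0072 in limma. The second Gbe1 transcript in the files, uc007zqt.1, had lower FPKM in every sample (2.40 to 49.2).

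Ppp1r3c, the phosphatase-targeting subunit, was at 1.90 and 2.03 FPKM on day 0, at 8.87 and 19.0 at days 4 and 8 without ROS, at 8.90 and 18.2 with ROS, and at 35.2 in WT A, 10.1 in WT B, 7.03 in S265A, 24.6 in S265D and 7.93 in S265D-H1120Y. The later samples did not overlap day 0. Its log2 fold change of 2.71 ± 0.54 (SE) had an adjusted p of 0.0026 in limma.

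The other members did not pass the test. Ugp2, which makes UDP-glucose, was at 21.3 and 24.2 FPKM on day 0 and at 23.8 to 60.1 later, a log2 fold change of 0.77 ± 0.35 (SE) with an adjusted p of 0.111 in limma. Pygb, the brain isozyme and the main phosphorylase RNA here, was at 22.8 and 23.6 FPKM on day 0 and at 21.7 to 52.3 later. Pygl, the liver isozyme, went from 0.43 and 0.73 FPKM on day 0 to between 0.27 and 22.1 later, and Pygm, the muscle isozyme, stayed between 0.17 and 0.60 FPKM in all samples. The log2 fold changes were 0.37 (adjusted p = 0.368) for Pygb, 1.87 (0.307) for Pygl and 0.24 (0.627) for Pygm in the same limma fit, and the 95% interval for Pygl, from -1.06 to 4.80, was the widest.

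**Figure D1:**
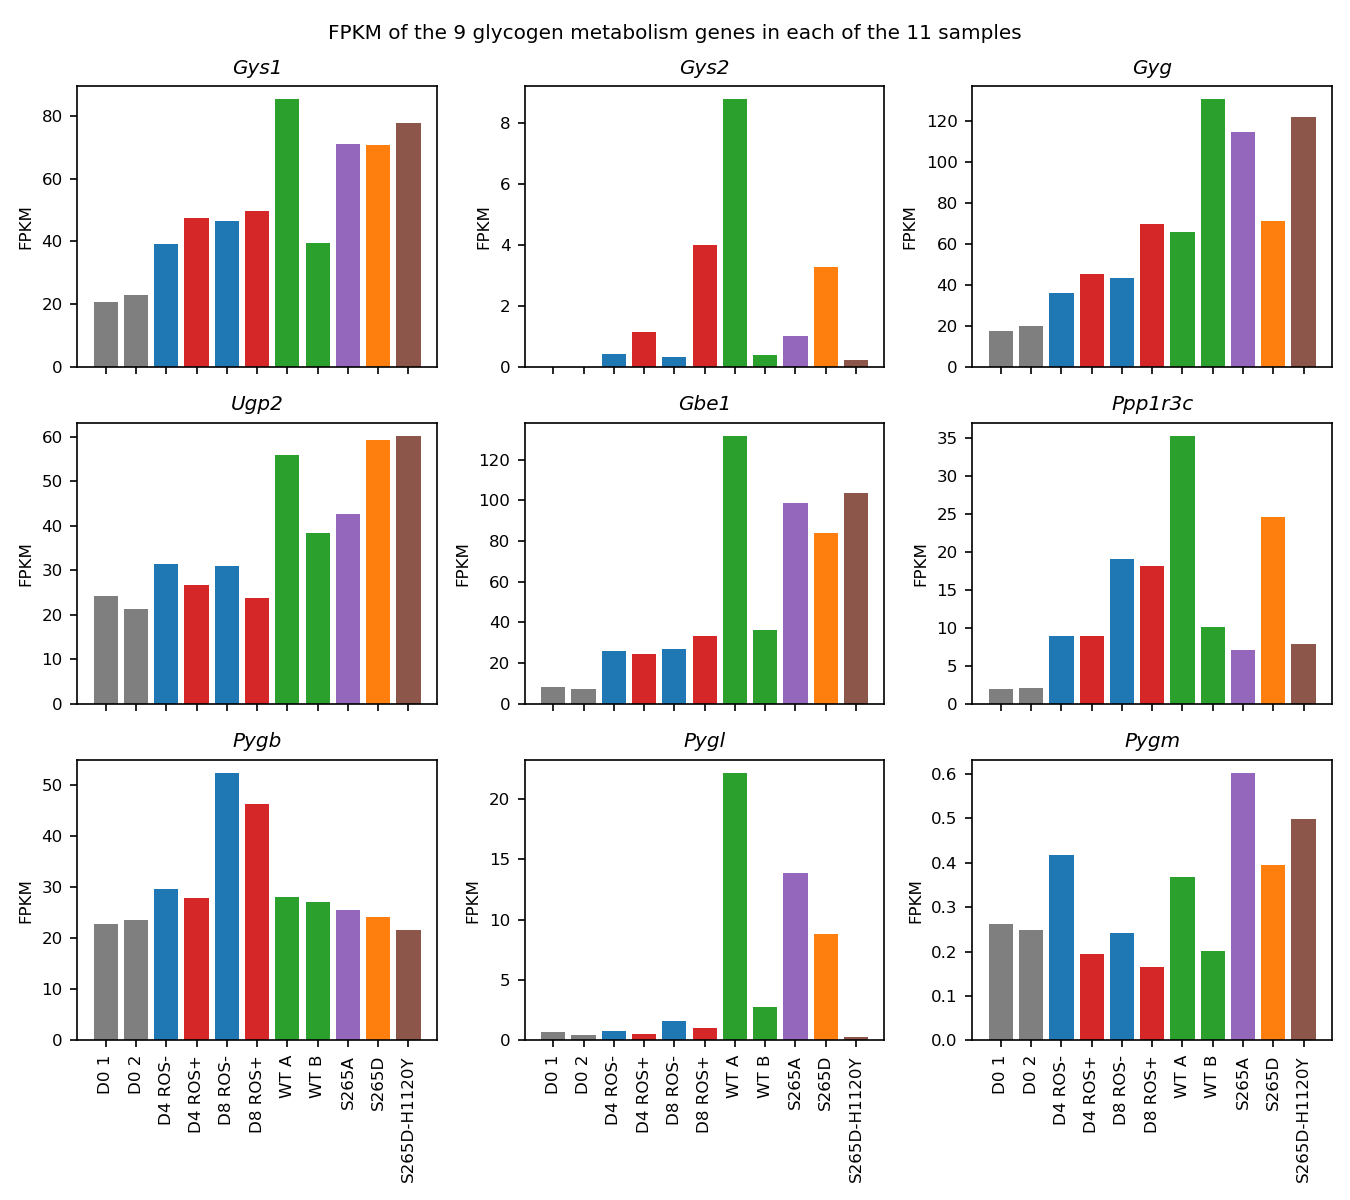
FPKM (y axis, linear, from 0, with a scale of its own in each panel) of the 9 genes in each of the 11 samples (x axis, 1 bar per sample). Grey bars are day 0, blue ROS-, red ROS+, green WT, and purple, orange and brown the 3 mutants. Gys1, Gyg, Gbe1 and Ppp1r3c are lowest on day 0, Gys2 reaches 8.78 FPKM in WT A, and Pygl drops to 0.27 FPKM in S265D-H1120Y.

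Of the 8 members other than Gys2, 4 rose and 0 fell, while 16.5% of the 17075 genes tested rose and 17.7% fell. The median log2 fold change was 1.62 over these 8 genes and 0.01 over all genes. The 9 later samples differ in treatment and virus, so their spread includes those differences. When either sample of day 0 was left out, Gys1 (adjusted p = 0.0537 and 0.0714), Gyg (0.0644 and 0.0866) and Gbe1 (0.0633 and 0.0878) no longer passed in limma, whereas Ppp1r3c still did (0.0379 and 0.0410). In bulk RNA, a larger share of differentiated cells and more RNA per cell cannot be told apart.

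**Figure D2:**
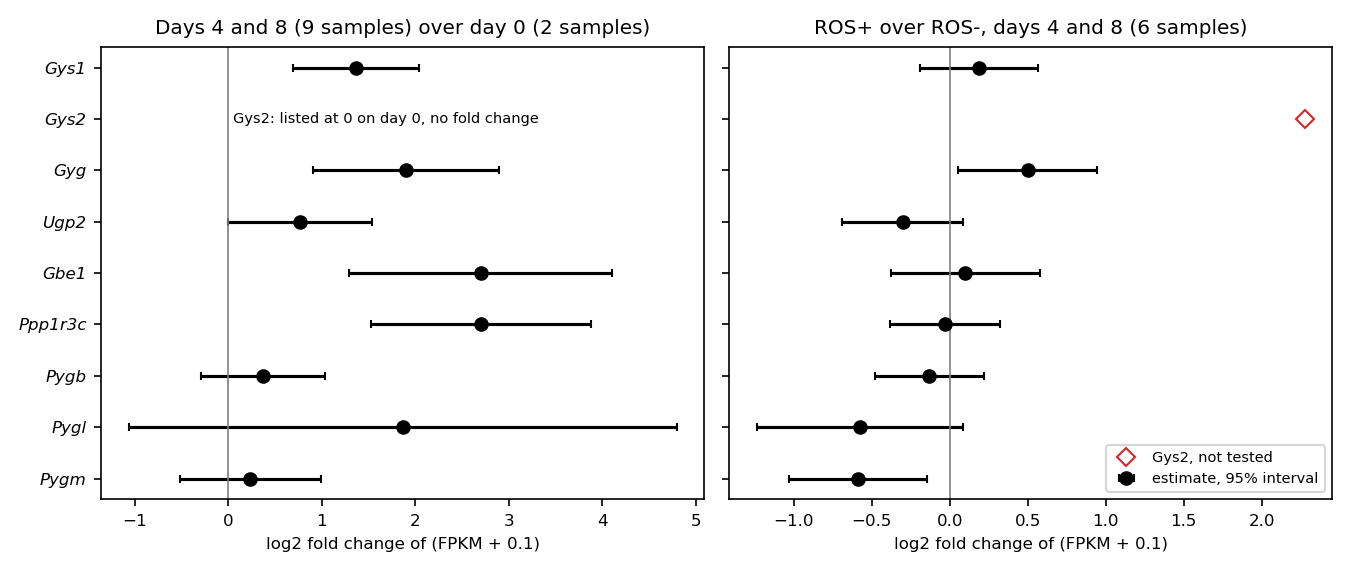
Log2 fold change of FPKM + 0.1 (x axis) with its 95% limma interval for each gene (y axis), for days 4 and 8 over day 0 on the left and ROS+ over ROS- on the right. Black points are tested genes and the open red diamond is Gys2, which was not tested and has no fold change over day 0. On the left the intervals of Gys1, Gyg, Gbe1 and Ppp1r3c lie wholly above 0 and that of Ugp2 begins at 0.00, and on the right no gene passed the adjusted p.

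Of 35 other genes of glycogen and glucose handling, 31 could be tested, of which 10 rose and 2 fell from day 0 to days 4 and 8 (median log2 fold change 0.39). Of all 17075 genes tested, 16.5% rose and 17.7% fell (median 0.01). The smaller lists that follow were not tested against these shares. Among genes of glucose entry (8 tested), 4 rose and 2 fell. Slc2a4, the insulin-responsive glucose transporter GLUT4, was at 0.05 and 0.12 FPKM on day 0 and at 59.4 to 94.4 later, a log2 fold change of 8.76, and it is also among the adipocyte markers. Hk1, hexokinase 1, fell by 1.29 (adjusted p = 0.0382, limma) and Pgm1 (0.0023), which interconverts glucose phosphates, fell by 1.23 on the same log2 scale. Hk2 and Pgm2, of the same list and chosen after their values were seen, rose by 2.24 (0.0020) and 1.41 (0.0031) in limma. Pgm2 was at 80.9 and 87.0 FPKM on day 0 and at 131.9 to 309.3 later. Pgm1 was at 15.4 and 15.8, then at 4.92 to 9.27. Among protein phosphatase 1 and its glycogen-targeting subunits, 4 of 7 rose. Ppp1r3b, the targeting subunit of liver, was at 0.19 FPKM in both samples of day 0 and at 1.15 to 23.8 later (log2 fold change 3.87, adjusted p = 0.0052 in limma). Of the phosphorylase kinase subunits 1 of 5 rose, of the debranching, lysosomal and quality-control genes 1 of 5, and of 3 synthase kinases and 3 genes of glucose 6-phosphate hydrolysis 0. Adipocyte markers moved in the same direction, as given above, and their part in these changes was not tested.

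From day 4 to day 8 of the time course, Ppp1r3c about doubled, from 8.87 and 8.90 FPKM to 19.0 and 18.2 in the samples without and with ROS, and Pygb went from 29.6 and 27.9 FPKM to 52.3 and 46.3. In both genes the 2 samples of day 8 lay above the 2 of day 4, and the share of all genes that do so was not computed. The log2 differences were 1.06 ± 0.13 (SE) for Ppp1r3c, with an adjusted p of 0.0589, and 0.77 ± 0.13 for Pygb, with an adjusted p of 0.0786 in limma, both just above the threshold of 0.05. The other 6 members tested had log2 differences from -0.37 (Pygm) to 0.92 (Pygl, adjusted p = 0.113 in limma). Of the members 0 passed, while 0.854% of the 16400 genes tested did. With a pseudocount of 1 both Ppp1r3c and Pygb passed (adjusted p = 0.0192 and 0.0300 in limma). They also passed with a minimum FPKM of 1 (0.0299 and 0.0463) or a variance trend (0.0217 and 0.0238). In these settings 1366, 592 and 1389 of all genes were called, against 140 in the main fit. Neither passed with a pseudocount of 0.01, no filter, the transcript of highest mean, upper-quartile scaling or all 11 samples in the fit. Nor did either pass when any of the 6 samples was left out (log2 differences 1.02 to 1.09 and 0.727 to 0.818). Of the 30 other glycogen and glucose genes that could be tested, 1 passed: Stbd1, which tethers glycogen to membranes, was at 0.84 and 1.16 FPKM at day 4 and at 5.20 and 5.06 at day 8, with an adjusted p of 0.0376 in limma. When any of the 6 samples was left out, 0 genes were called (smallest adjusted p 0.143 to 0.236 in limma), so this call was lost too.

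The comparison of ROS-treated with untreated cells asked which of the genes differ between beige and white adipocytes. Gys2 was at 0.43 FPKM without and 1.16 with ROS at day 4, and at 0.31 without and 3.99 with ROS at day 8. The ratio was 2.66 at day 4 and 12.9 at day 8, and the ROS-treated sample was the higher on both days. As the study selected Gys2 on the day 8 contrast, these ratios describe the selection and were not tested. At day 8 it was the 1 member of 9 with a ratio of at least 2 or at most 0.5, among 19.2% of 15536 genes with such a ratio, and at day 4 there were 2 of 9, with 6.7% of all genes. The second was Pygm, which was lower with ROS (0.19 against 0.42 FPKM), low values that rest on 2794 and 3680 mapped bases. Between the 2 samples of day 0, 4.9% of genes and 0 of the 8 members with a ratio were that far apart.

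The other members differed less with ROS. Over all genes with a ratio above 0, the median log2 ratio of FPKM with ROS was -0.07 at day 4 and -0.22 at day 8. The ratios that follow are not corrected for this shift. Gys1 had FPKM ratios with ROS of 1.21 at day 4 and 1.07 at day 8, Gyg of 1.25 and 1.60, Ugp2 of 0.85 and 0.77, Pygl of 0.67 and 0.61 and Pygb of 0.94 and 0.89. Gbe1 (0.93 and 1.24) and Ppp1r3c (1.00 and 0.95) were on different sides of 1 at the 2 days. Taken over both days in limma, the largest log2 differences were -0.59 ± 0.17 (SE) for Pygm (adjusted p = 0.232), -0.58 ± 0.25 for Pygl (0.320) and 0.50 ± 0.17 for Gyg (0.258). The 95% interval of the difference was -0.19 to 0.56 for Gys1 and -0.38 to 0.32 for Ppp1r3c, whose difference of -0.03 became 0.07 with upper-quartile scaling. Of the members 0 passed, and likewise 0% of the 16400 genes tested passed limma at an adjusted p of 0.05. At an unadjusted p below 0.05 there were 2901 genes in this fit, Pygm and Gyg among them, and with a variance trend limma also called 0. The 4 samples of days 4 and 8 and the 2 of day 0 leave 2 residual degrees of freedom.

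Marker sums also differed between the samples with and without ROS. Thermogenic markers (9 genes) summed to 403 FPKM in day 8 ROS+ and 98.0 in day 8 ROS-, preadipocyte markers (8 genes) to 147.3 and 589.2, and adipocyte markers to 36210 and 9926. Fabp4 made up 31400 and 7631 of the adipocyte sums, and Ly6a 107.5 and 494.9 of the preadipocyte sums. Of the adipocyte markers, Pparg (139.6 and 231.4), Retn (237.5 and 277.7) and Lep (0 and 0.25) were lower with ROS. The part of the markers in the values above was not tested.

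**Figure D3:**
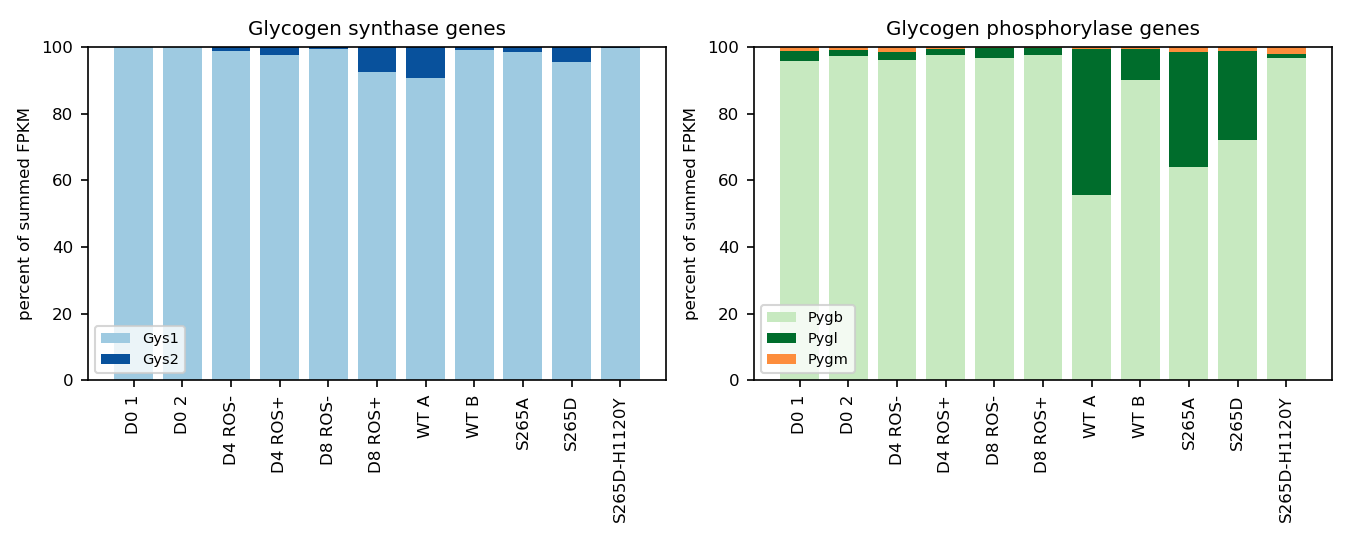
Share of each isozyme in the summed FPKM of its family (y axis, percent, stacked to 100) in each sample (x axis), for glycogen synthase on the left and glycogen phosphorylase on the right. Gys2 reaches 9.33% of synthase RNA in WT A, and Pygl reaches 43.7% of phosphorylase RNA in WT A against 1.20% in S265D-H1120Y.

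On the FPKM scale Gys1 was the main synthase RNA throughout. Gys2 made up 0% of summed synthase FPKM on day 0, 1.10% and 2.38% at day 4 without and with ROS, 0.66% and 7.42% at day 8, and 9.33% in WT A, 0.97% in WT B, 1.40% in S265A, 4.44% in S265D and 0.30% in S265D-H1120Y. Pygb made up at least 95.8% of phosphorylase FPKM in the 6 untransduced samples. In the transduced samples Pygl took 43.7% in WT A, 34.6% in S265A, 26.6% in S265D, 9.12% in WT B and 1.20% in S265D-H1120Y. Summed phosphorylase FPKM over summed synthase FPKM went from 0.287 in S265D-H1120Y to 1.16 in day 8 ROS-.

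The transduced samples addressed whether S265 of JMJD1A and its catalytic domain matter for these genes, but WT A and WT B stood far apart. WT A was higher than WT B for Gys2 (8.78 against 0.39 FPKM, ratio 22.6), Pygl (22.1 against 2.73, ratio 8.10), Gbe1 (ratio 3.64), Ppp1r3c (3.48) and Gys1 (2.16), and lower for Gyg (0.505). Thus 5 of the 9 members were at least 2-fold apart between samples of the same group, as were 27.2% of 15837 genes. Pygb differed least (28.1 against 27.0 FPKM). Thermogenic markers summed to 363.7 FPKM in WT A and 118.5 in WT B, preadipocyte markers to 150.7 and 588.6, and adipocyte markers to 15750 and 29220. The adipocyte sums were mostly Fabp4 (12390 and 26900 FPKM). Of the other adipocyte markers only Pparg was higher in WT B (89.8 and 95.6). The rest were higher in WT A, such as Adipoq (977.9 and 738.5) and Cidec (1230 and 807.9). Every contrast with WT is therefore given with each WT sample.

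With S265A, Gys2 was at 1.01 FPKM, 0.115 times WT A but 2.60 times WT B. Ppp1r3c, at 7.03 FPKM, was below both WT samples (0.199 times WT A and 0.693 times WT B) and was the lowest of the 9 later samples. Pygl (0.626 times WT A, 5.07 times WT B), Gbe1 (0.752 and 2.73) and Gys1 (0.834 and 1.80) lay between the WT samples. Pygm, at 0.60 FPKM, was above both (1.63 and 3.00 times). Against WT A, 2 of 9 members were past 2-fold, with 19% of genes, and against WT B 4 of 9, with 13%. Against the WT mean there were 3 of 9, with 9.89% of genes. In limma, 0 members and 0% of 16402 genes passed, with 107 genes at an unadjusted p below 0.05. That number became 3870 without WT A and 5651 without WT B, in fits that take the spread from the day 0 pair, and 0 genes passed in either.

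With S265D, Gys2 was at 3.29 FPKM, 0.374 times WT A and 8.47 times WT B, and so again between the WT samples. Ppp1r3c (24.6 FPKM, 0.698 and 2.43 times), Pygl (8.84 FPKM, 0.399 and 3.24 times), Gbe1 and Gys1 also lay between them. The list that holds Gys2 was selected for lower RNA with S265A and higher RNA with S265D. Of the 2 WT samples, Gys2 met the first only against WT A and the second only against WT B. The paper does not state which WT sample each mutant was set against, and the fits here took both as 1 group. Against WT A, 2 of 9 members were past 2-fold, with 20.8% of genes, and against WT B 4 of 9, with 9.65%. Against the WT mean it was 0 of 9, with 8.67% of genes. In limma, 0 members and 0% of genes passed, with 99 genes at an unadjusted p below 0.05, or 3142 without WT A and 5723 without WT B. Between the mutants, which are single samples, S265D was higher than S265A for Ppp1r3c (3.50 times) and Gys2 (3.26 times), 2 of 9 members past 2-fold with 11.2% of genes, whereas Gys1 was level (0.995).

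**Figure D4:**
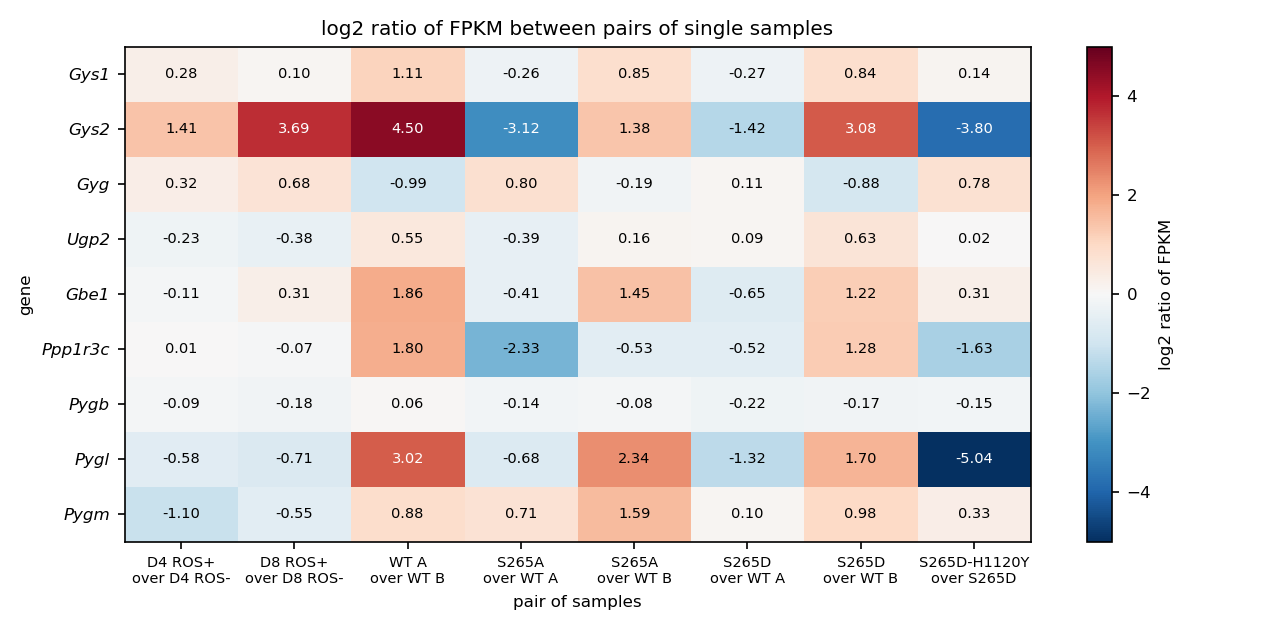
Log2 ratio of FPKM (number and colour, red higher and blue lower in the first sample) of the 9 genes (y axis) for 8 pairs of single samples (x axis). The WT A over WT B column is the spread within a group, 4.50 for Gys2 and 3.02 for Pygl, and the signs of S265A and S265D against WT differ for Gys2 with the WT sample used.

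The change in the catalytic domain went with the lowest Pygl. It was at 0.27 FPKM with both changes and at 8.84 with S265D alone (ratio 0.030), and S265D-H1120Y was the lowest of all 11 samples, below day 0. Gys2 went from 3.29 to 0.24 FPKM (0.072) and Ppp1r3c from 24.6 to 7.93 (0.322). Apart from Gys2, the genes of chain building were at similar or higher levels: Gys1 (ratio 1.10), Ugp2 (1.01), Gbe1 (1.24) and Gyg (1.71). The phosphorylase genes other than Pygl were at ratios of 0.900 (Pygb) and 1.26 (Pygm). So 3 of 9 members were past 2-fold, all lower, with 14.3% of all genes past 2-fold, and Gys2 had been selected on this contrast. Pygl had a log2 difference of -4.60 ± 1.80 (SE), with a 95% interval from -10.4 to 1.25 and an adjusted p of 1 in limma. With 1 sample a side and the spread taken from the WT pair, 0% of genes passed, and 187 were at an unadjusted p below 0.05, or 4341 without WT A and 4374 without WT B, with the spread of the day 0 pair. Against the WT pair, the Pygl value of S265D-H1120Y was below both samples, as was that of Gys2. So were those of Ppp1r3c (7.93 against 35.2 and 10.1 FPKM) and Pygb (21.7 against 28.1 and 27.0).

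The other targeting subunits differed in their order over the transduced samples. Ppp1r3b was at 23.8 FPKM in WT A, 2.48 in WT B, 3.65 in S265A, 14.7 in S265D and 4.79 in S265D-H1120Y. Ppp1r3d, a further targeting subunit that was chosen after its values were seen, was at 13.6, 4.27, 1.41, 10.6 and 0.50 FPKM in the same order of samples. In both, WT A and S265D were the 2 highest of the 11 samples. Ppp1r3e and Ppp1r3f, also chosen after their values were seen, did not share this. Ppp1r3e was at 1.14, 2.36, 3.28, 2.77 and 3.62 FPKM, lowest in WT A, and Ppp1r3f at 3.46, 4.27, 4.16, 2.97 and 2.76 FPKM. Thermogenic markers summed to 162.8 FPKM in S265A, 349.6 in S265D and 188.6 in S265D-H1120Y, preadipocyte markers to 255.6, 504.5 and 222.6, and adipocyte markers to 26360, 25110 and 15580. Fabp4 made up 23910, 22870 and 14130 of the adipocyte sums, and Ly6a 199.5, 416.6 and 164.9 of the preadipocyte sums. The part of the markers in these values was not tested.

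Ordered from high to low, Gys2 was at 8.78 FPKM in WT A, 3.99 in day 8 ROS+, 3.29 in S265D, 1.16 in day 4 ROS+, 1.01 in S265A, 0.43 in day 4 ROS-, 0.39 in WT B, 0.31 in day 8 ROS-, 0.24 in S265D-H1120Y and 0 in both samples of day 0. Neighbours above 0 were 1.12 to 2.84 times apart. The WT samples were 22.6 times apart and 5 of the other 7 later samples lay between them, and the 2 samples of day 0 were both listed at 0. No other condition had a second sample. The low values rest on 2885 to 3788 mapped bases, and the 2 highest on 86419 and 53889.

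**Figure D5:**
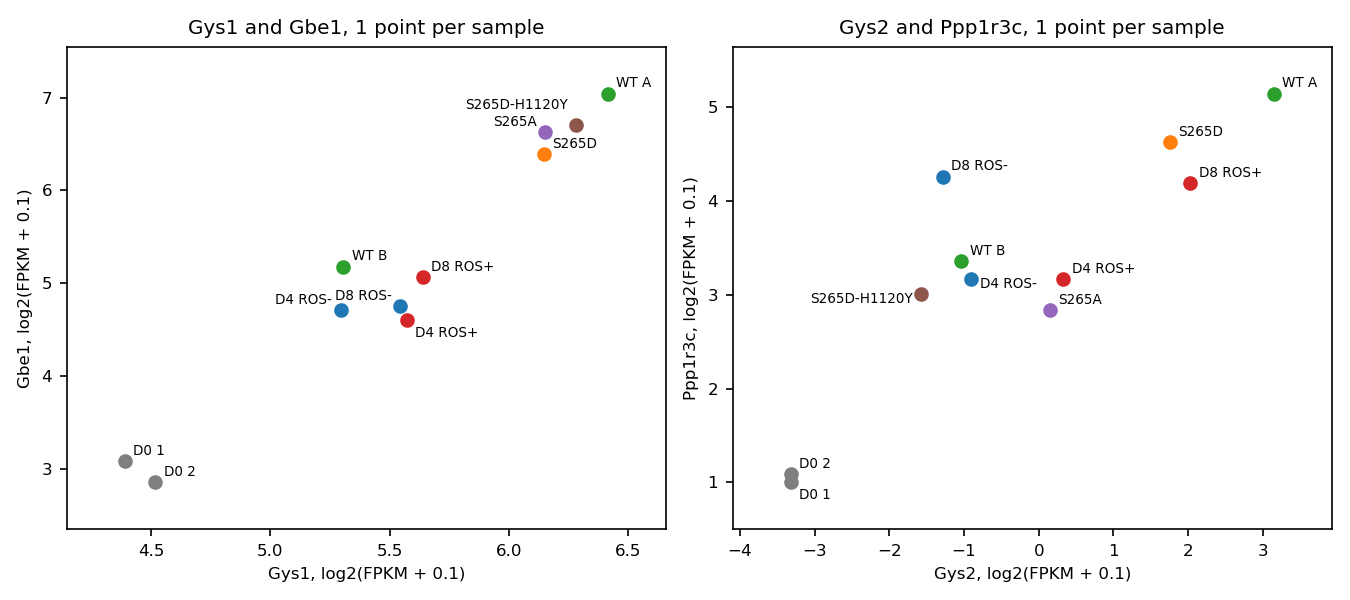
Each point is 1 of the 11 samples, on axes of log2(FPKM + 0.1), for Gys1 (x) and Gbe1 (y) on the left and Gys2 (x) and Ppp1r3c (y) on the right. Gys1 and Gbe1 fall along 1 line (r = 0.973), while day 8 ROS- has high Ppp1r3c with low Gys2.

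Genes were ranked by Pearson's r with each member on log2(FPKM + 0.1) over the 11 samples, among 13615 genes that reached 1 FPKM. As the samples share the step from day 0 to later days, r is a description, and r over the 9 later samples is given second. Gys2 was closest to Lyrm7 (0.967, 0.977), Hadha (0.960, 0.968), A230051G13Rik (0.960, 0.920), Pank1 (0.957, 0.916), Gyk (0.955, 0.916), Enc1 (0.955, 0.944), Ndufa8 (0.953, 0.921), Slc25a20 (0.953, 0.910), Cox6a1 (0.950, 0.908) and Aldh9a1 (0.949, 0.912). Among these, Hadha and Slc25a20 serve mitochondrial fatty acid oxidation, Ndufa8 and Cox6a1 are respiratory chain subunits, Pank1 makes coenzyme A and Gyk phosphorylates glycerol. As the study selected Gys2 on these samples, genes that follow the same contrasts rank high by construction. The share of mitochondrial genes among all genes searched was not computed. Of the other members Ppp1r3c was the closest to Gys2 (0.867, 0.722), and Gys1 was at 0.762, falling to 0.465 over the later samples.

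The remaining members each had other neighbours. Gys1 and Gbe1 were each other's closest gene (0.973, 0.940), followed by Spg21 and Odz4 for Gys1 and by Kdm6b and Slc30a9 for Gbe1. Gyg was closest to Lrrc51, Uhrf1bp1 and AK144847 (0.975 to 0.983), Ugp2 to Hivep2, Zfp800 and mKIAA1506 (0.942 to 0.974), Ppp1r3c to Nudt7, Jak3 and RGS7 (0.972 to 0.983) and Pygb to 2610306M01Rik, U2af26 and Trafd1 (0.953 to 0.978). Pygl (Tmem218, Mocos and Fam49a, 0.927 to 0.943) and Pygm (Cdkn2aip, Igf1 and AW551984, 0.821 to 0.878) had the lowest values, and Pygm was below 1 FPKM throughout.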

How the data were processed

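RNA-seq of 11 im-scWAT samples was used. The authors aligned TruSeq reads with Burrows-Wheeler aligner to UCSC genes and mm9, realigned them locally with k = 11, and deposited strand-specific FPKM per transcript. A further deposited column gives signal as mapped bases, which are not read counts, so no count test was used. Of the 55419 transcripts, the sense row that the files mark as representative gave the value of each symbol. Groups came from the sample labels. limma 3.58.1 in R 4.3.3 took log2(FPKM + 0.1) of all genes that reached 0.1 FPKM in any sample of a fit, p-values were adjusted over these genes (Benjamini-Hochberg, threshold 0.05), and the step was tested on simulated data, where the fit of the transduced samples was too small to recover the changed genes. The 3 fits held all 11 samples (2 groups), the 6 untransduced samples (terms for day 4, day 8 and ROS) and the 5 transduced samples (4 groups, 1 residual degree of freedom). Ratios used no pseudocount and left out genes under 0.1 FPKM in both samples. Alternatives changed the pseudocount, the minimum, the transcript, the scaling, the variance trend and the samples. Other steps ran in Python 3.11.15 (pandas 2.3.3, numpy 2.4.6, matplotlib 3.10.9).

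The members, the other lists and the comparisons were chosen with earlier results of these data known. Genes named are the 9 members, the other glycogen and glucose genes past the adjusted p (at most the 3 largest and 3 smallest changes per comparison) or past 2-fold at both days with ROS, and the nearest genes by r. A result that this rule would also name is not reported here.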

Additional observations from a re-analysis of the deposited data

Results flagged for a closer look

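With 1 or 2 samples in each condition, no group was large enough for a check of single outlying samples. The ROS ratio of Gbe1 was 0.927 at day 4 and 1.24 at day 8, and that of Ppp1r3c was 1.004 at day 4 and 0.953 at day 8, so each lay on opposite sides of 1 at the 2 days. With 1 sample per condition this difference between days was not tested. On the antisense strand, which no comparison used, the highest FPKM was 0.485 at Gys1 (day 8 ROS-), 0.684 at Gbe1 (WT A), 0.142 at Pygb (S265A) and 0.113 at Ppp1r3c (WT A), above the highest values of day 0 (0.0719, 0.0151, 0.0310 and 0.00121). Gys1 overlaps Ruvbl2 and Gbe1 overlaps 4930423O20Rik on the other strand.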

How the results depend on the processing

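The count of changed genes for days 4 and 8 over day 0 stayed within 1.5 times 5845 under every alternative other than leaving out a day 0 sample (range when leaving out 1 sample 2387 to 6038). There, Gys1, Gyg and Gbe1 lost their call (log2 fold changes 1.30 to 1.43, 1.80 to 2.01 and 2.59 to 2.82) without either day 0 sample, which leaves 1 sample in that arm, assumed to vary like the others. Pygm was at -0.054 in the 6 untransduced samples. For ROS, 41 genes passed with no filter and 1 in the fit of all 11 samples, 0 under the other alternatives and 0 to 0 on leaving out a sample. For ROS, Gbe1 went from -0.11 to 0.31 on leaving out a sample, and Ppp1r3c from -0.069 to 0.0056 and to 0.072 with upper-quartile scaling. For day 8 over day 4 the count of 140 became 1366 with a pseudocount of 1, 8 with 0.01, 43 with no filter, 592 with a minimum of 1 FPKM, 91 with the transcript of highest mean, 1389 with a variance trend, 13 in all 11 samples and 0 to 0 on leaving out a sample. The cause was not tested. The transduced fits called 0 genes under each alternative, although without a filter 1643, 1524 and 2046 genes had an unadjusted p below 0.05 (S265A, S265D, S265D-H1120Y). A lone sample of a contrast could not be left out.

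A minimum of 1 FPKM reduced the genes past 2-fold to 1529 (day 8 ROS), 174 (day 4 ROS), 89 (day 0 pair), 2521 (WT pair), 502 (S265A over WT mean), 389 (S265D over WT mean) and 957 (S265D-H1120Y over S265D), and a pseudocount of 1 to 851, 39, 9, 1574, 210, 189 and 504. With 1 WT sample in place of the mean there were 2045 to 2984 for S265A and 1518 to 3283 for S265D. No paired analysis was possible by replicate number because the groups compared share fewer than 2 of them, and the fit of the time course already has terms for day and ROS. Low FPKM of Gys2, Pygl and Pygm rest on few mapped bases, and conditions with 1 sample limit every contrast other than that with day 0.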

Other observations

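Set beside the untransduced sample of the same day and medium (day 8 ROS+), some members were at other levels in all 5 transduced samples. Ugp2 was at 23.8 FPKM in day 8 ROS+ and at 38.3 to 60.1 in the transduced samples. Gbe1 was at 33.4 against 36.2 to 131.7, Pygb at 46.3 against 21.7 to 28.1 and Pygm at 0.17 against 0.20 to 0.60. The other members lay within the range of the transduced samples. The share of all genes outside that range was not computed, so this only describes the members. Stbd1 was at 5.06 FPKM in day 8 ROS+ and at 12.03 to 118.2 in the transduced samples, the highest being S265D-H1120Y. Virus, knockdown and the day of the experiment cannot be told apart in this contrast.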
